A study of Homo sapiens with 4 samples.

Results

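The genes described here encode the proteasome, the protease complex that degrades proteins tagged with ubiquitin, together with the chaperones that assemble it. Members were all genes of the deposited count table whose symbol is PSMA, PSMB, PSMC, PSMD, PSME, PSMF or PSMG followed only by a number, which leaves out pseudogenes. There were 48 such genes among 58219 in the table. Of these, 43 passed the filter on low counts and were tested. The other 5 (PSMA8, PSMB3, PSMB8, PSMB9 and PSMB11) had between 0 and 2 counts over all libraries and are described separately.

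The proteasome core, called 20S, is a barrel of stacked rings in which alpha subunits gate the entrance and some beta subunits carry the proteolytic sites. The regulatory particle, called 19S, binds ubiquitinated proteins, removes the ubiquitin and uses its ring of ATPases to unfold and feed them into the core. Assembly chaperones order the subunits and leave before the particle is complete. When proteasome activity is impaired, the transcription factor NFE2L1 raises the proteasome genes, while interferon induces alternative beta subunits and the PA28 activator. Carnosine, the dipeptide of beta-alanine and histidine, was given in the medium.

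RNA was sequenced from U87 cells, an established human glioblastoma line. The 2 control libraries came from cells in medium with no added carnosine, and the 2 carnosine libraries from cells kept for 24 h in medium with 50 mM carnosine. All cultures were plated 24 h before the medium was changed, in DMEM with high glucose, fetal bovine serum, GlutaMAX and antibiotics. Whether the replicates of a group came from separate cultures is not stated in the labels, so every p value here rests on the spread between these samples only, and that spread may be technical. Gene counts per library summed to between 51632970 and 71766267. Of 6 markers of mesenchymal glioblastoma cells all were tested, and 1, CHI3L1, rose with carnosine. Their summed level was 10933 and 10493 CPM (counts scaled to a common library size) in controls and 9259 and 9881 CPM with carnosine. The glial markers GFAP, S100B, OLIG2 and SOX2 summed to 3.78 and 4.17 CPM in controls and 1.94 and 2.78 CPM with carnosine, with S100B at 0 counts in every library. Immune markers summed to between 0.765 and 1.21 CPM with CD3E at 0. Endothelial markers summed to between 2.28 and 2.90 CPM in controls and 5.54 and 6.76 CPM with carnosine, where PECAM1 rose and CDH5 stayed at 0 counts. Neuronal markers summed to 27.6 and 25.2 CPM in controls and 22.7 and 19.5 CPM with carnosine, with RBFOX3 at 0. The mesenchymal, glial and neuronal sums were thus lower in both carnosine libraries than in both controls, but the genes within each list differed in sign. VIM, the largest part of the mesenchymal sum, had a log2 fold change of -0.37 and NES -0.33. CD44, TNC, CHI3L1 and SPARC had 0.25, 0.056, 0.55 and 0.40. OLIG2 had -0.85 and GFAP 0.55, and SNAP25 had -0.67 and SYT1 0.10. Of these genes only CHI3L1 passed the test. The part of these markers in the results on proteasome genes was not tested.

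With carnosine, 3 of the 43 tested proteasome genes fell, and most of the others had values below 0 that did not pass, the lowest being PSMB10 at -0.48. The genes that fell were PSMD5, a chaperone of the 19S base, PSMD4, a ubiquitin receptor of the 19S particle, and PSMD7, a subunit of the 19S lid, and 0 members rose. The median log2 fold change (carnosine against control) was -0.25 over the 43 members, against 0.0009 over all 16340 genes tested and -0.017 over the 12401 tested protein-coding genes. Members with a value below 0 numbered 39 of 43, or 90.7%, where all genes tested had 49.9%. A gene was called when the edgeR quasi-likelihood test gave an adjusted p under 0.05 over all genes tested. That test called 4.36% of all genes lower, 3.95% higher and 8.31% in either direction, and the 3 members that fell are 6.98% of those tested, a share near that background. Which genes were called, among the members and over all genes tested, changed with the library left out. With any 1 library left out, the median log2 fold change of the members lay between -0.30 and -0.17. That of all genes tested lay between -0.014 and 0.015. At an unadjusted p under 0.05, 19 members were lower and 0 higher, where 14.1% of all genes were lower, but these do not count as calls.

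**Figure D1:**
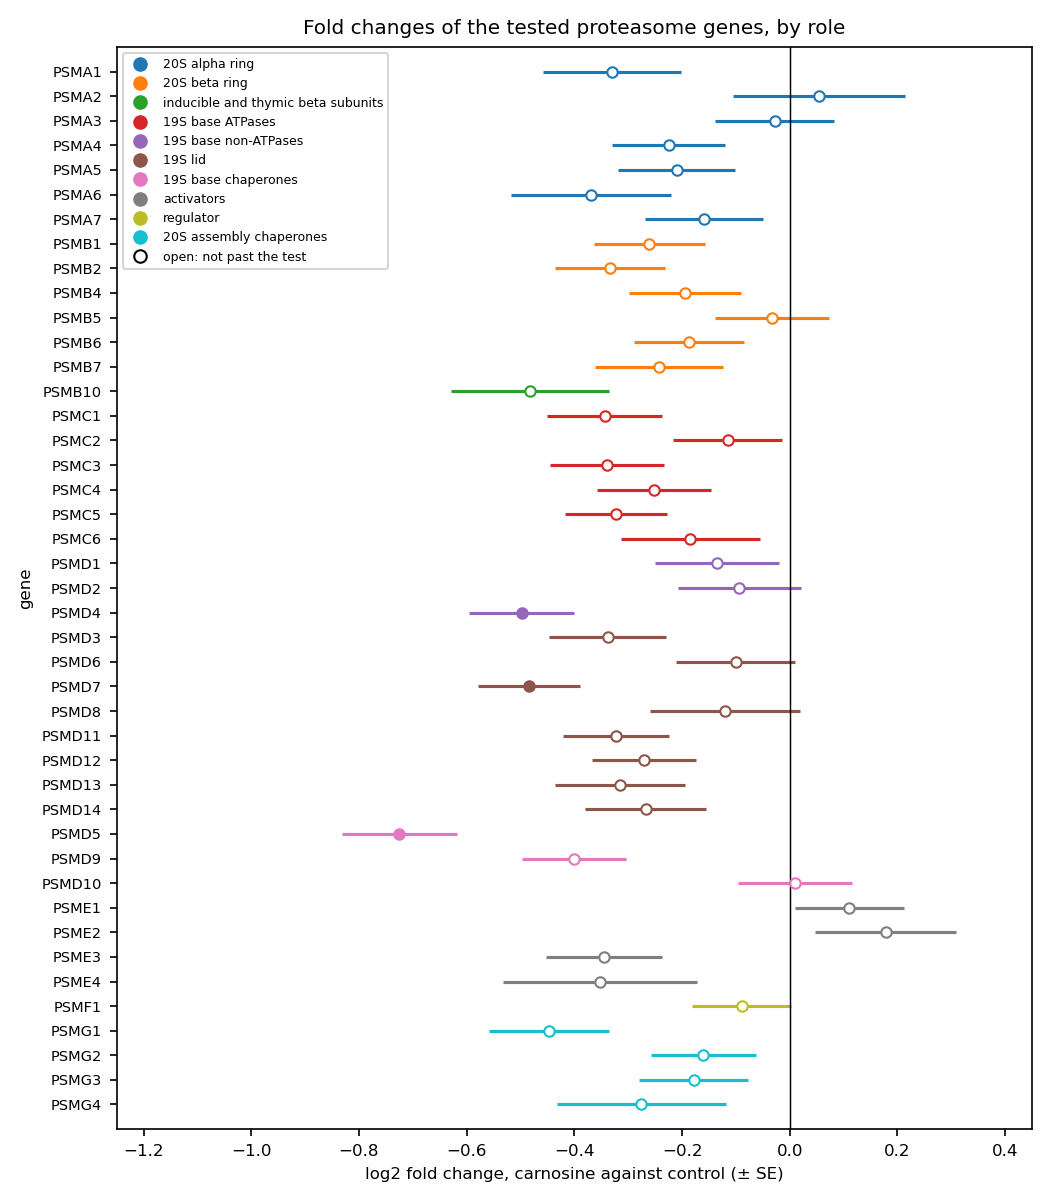
Log2 fold change of carnosine against control (x axis, with SE) for each of the 43 tested proteasome genes (y axis), coloured by role. Filled points are the 3 genes that passed the test, PSMD4, PSMD5 and PSMD7. 39 points lie left of 0, and PSME1 and PSME2 lie farthest to the right.

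Both carnosine libraries lay below both controls for 32 of the 43 members (74.4%), and above both for 1, PSME1. Over all genes tested these shares were 28.8% below and 27.8% above. Summed over all 48 members, proteasome transcripts made up 6957 and 7000 CPM in control replicates 1 and 2, and 5766 and 6315 CPM in carnosine replicates 1 and 2. The mean was 13.4% lower with carnosine, 6979 ± 30.3 against 6040 ± 388 CPM (SD, n = 2 each). As a share of raw counts the members held 0.690% and 0.695% in controls and 0.601% and 0.616% with carnosine. An exact permutation test of 2 against 2 libraries cannot go below p = 0.33, so no p is given for this sum. Carnosine replicate 1 was the lowest library: 36 of 43 members were lower there than in carnosine replicate 2, with a median log2 difference of -0.14, against 50.8% of all genes tested. Between the controls, 29 of 43 members (67.4%, against 50.2% of all genes tested) were lower in replicate 1, with a median log2 difference of -0.024. The library scaling factor of carnosine replicate 1 was 1.04 and that of carnosine replicate 2 was 0.976, and the part of scaling in this gap was not tested. In bulk RNA, fewer cells with a transcript and less of it per cell cannot be told apart.

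**Figure D2:**
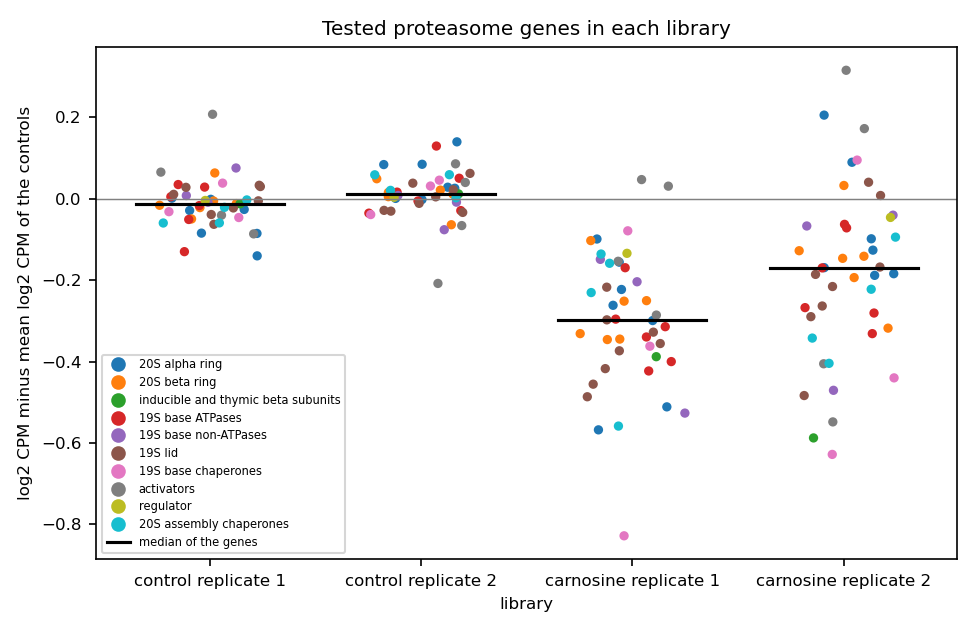
Log2 CPM of each tested proteasome gene in each library (x axis), given as the difference from that gene's mean log2 CPM in the controls (y axis). Points are the 43 genes coloured by role and bars are the medians, which lie below 0 in both carnosine libraries and lower in replicate 1 than in replicate 2.

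**Figure D3:**
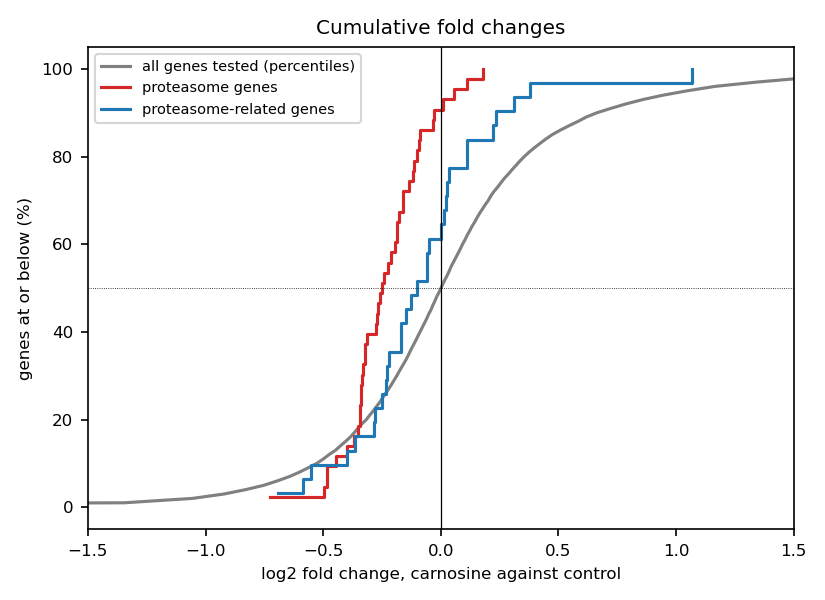
Share of genes (y axis, %) with a log2 fold change at or below the value on the x axis, for all 16340 genes tested, the 43 proteasome genes and 31 proteasome-related genes. The curve of the proteasome genes reaches 90.7% at 0, that of all genes 49.9%.

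The largest fall was in PSMD5 (ENSG00000095261.13, chromosome 9, 120815496 to 120842984, minus strand, GRCh38), also called S5b, which holds part of the ATPase ring during assembly of the 19S base. It had 94.4 and 98.6 CPM in the controls and 54.3 and 62.4 CPM with carnosine. The 2 groups were well apart, and the drop was larger than the spread within either. PSMD5 was 1.65-fold lower. Its log2 fold change was -0.72 ± 0.11 (SE), with an adjusted p of 0.0170 by edgeR. It passed again without any 1 of the 4 libraries, with log2 fold changes from -0.83 to -0.63 and adjusted p from 0.00646 to 0.0397.

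PSMD4 (ENSG00000159352.15, chromosome 1, 151254703 to 151267479, plus strand) encodes RPN10, which binds ubiquitin chains through its ubiquitin-interacting motifs. It had 180.0 and 182.1 CPM in the controls and 125.7 and 130.7 CPM with carnosine. The libraries of each group were close together and the groups apart. PSMD4 was 1.41-fold lower (log2 fold change -0.50 ± 0.10 SE, adjusted p = 0.0317, edgeR). Its log2 fold change stayed between -0.53 and -0.47 with 1 library left out, but it no longer passed without control replicate 1, where the adjusted p was 0.127, without control replicate 2 (0.161) or without the first carnosine replicate (0.0545).

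PSMD7 (ENSG00000103035.10, chromosome 16, 74296775 to 74306288, plus strand) encodes RPN8, the partner of the deubiquitinase subunit in the lid. Its levels were 137.6 and 141.9 CPM in the controls and 99.7 and 99.9 CPM with carnosine. Again the groups did not overlap. PSMD7 was 1.40-fold lower (log2 fold change -0.48 ± 0.10 SE, adjusted p = 0.0317, edgeR). It no longer passed when control replicate 1 (adjusted p = 0.117) or control replicate 2 (0.172) was left out, while the log2 fold change stayed between -0.51 and -0.47. Exons of other genes on the opposite strand cover 30.7% of its exonic bases, and whether the counting used strand is not given. No such cover exists for PSMD4 or PSMD5.

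The stretches before the starts of PSMD5 and PSMD7 are shown because these genes passed the test and have a RefSeq promoter window (GRCh38.p14, 250 bases before to 50 after the start). Each is the longest stretch of the 250 bases before the RefSeq start that lies outside exons of protein-coding genes, written 5′ to 3′ on the gene's strand. Capitals mark an antioxidant response element core (TGACNNNGC), the kind of site bound by NFE2L1 and NFE2L2, in PSMD5 (chr9:120842985-120843172, minus strand) and a CCAAT box in PSMD7 (chr16:74296564-74296774, plus strand). The matches begin 134 bases before the start of PSMD5 and 198 before that of PSMD7.
PSMD5: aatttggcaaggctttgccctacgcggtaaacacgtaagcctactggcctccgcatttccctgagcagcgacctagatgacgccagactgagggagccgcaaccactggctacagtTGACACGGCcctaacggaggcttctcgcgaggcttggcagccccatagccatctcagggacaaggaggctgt
PSMD7: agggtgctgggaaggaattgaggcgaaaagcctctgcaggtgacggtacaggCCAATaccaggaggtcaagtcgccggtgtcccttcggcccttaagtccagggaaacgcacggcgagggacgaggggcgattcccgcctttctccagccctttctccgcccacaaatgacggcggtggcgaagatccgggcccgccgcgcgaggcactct

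RefSeq windows were found for 42 of the 48 members, and both strands were searched, with a gene counted once however many windows it had. The antioxidant response element core occurred in 15 of these 42 (35.7%), against 16.1% of all 27305 genes with a window. The CCAAT box occurred in 20 (47.6%, against 39.7%), and the interferon-stimulated response element core (GAAA, any 2 bases, GAAA) in 7 (16.7%, against 4.38%). These background shares are over genes with a window, whether tested or not. Among tested genes with a window, 1979 had the antioxidant core and 8167 did not. The same counts were 4404 and 5742 for the CCAAT box, and 413 and 9733 for the interferon core. Matches of different motifs may share bases, and a match describes the sequence and not binding. Tested members with the antioxidant core had a median log2 fold change of -0.27 (13 genes, 11 below 0) and those without it -0.24 (24 genes, 22 below 0). Over all tested genes with a window these medians were -0.0054 with the core and -0.015 without it. Members with a CCAAT box had -0.22 (17 genes) and those without it -0.27 (20 genes). Members with the interferon core had -0.21 (6 genes) and those without it -0.27 (31 genes).

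Of the other chaperones of the 19S base, neither passed the test. PSMD9, or p27, had 46.9 and 44.5 CPM in the controls and 35.6 and 33.7 CPM with carnosine, with a log2 fold change of -0.40 ± 0.10 (SE) and an adjusted p of 0.0521 (edgeR), just outside the threshold. DESeq2 called it (adjusted p = 0.0294). Exons of same-strand genes cover 19.9% of the exonic bases of PSMD9. PSMD10, or gankyrin, had 39.2 and 41.7 CPM against 38.3 and 43.2 CPM, with overlapping groups and a log2 fold change of 0.010. Among the 4 chaperones that build the 20S core, 0 passed. All 4 had both carnosine libraries below both controls, as did 28.8% of all genes tested. PSMG1, which pairs with PSMG2 to order the alpha ring, had 53.2 and 57.8 CPM in the controls and 37.7 and 43.8 CPM with carnosine (log2 fold change -0.45 ± 0.11 SE, adjusted p = 0.0560, edgeR). It was called by DESeq2 (adjusted p = 0.0223) and without carnosine replicate 2 (0.0286). PSMG2 and the PSMG3 and PSMG4 pair, which also act on the alpha ring, had log2 fold changes of -0.16, -0.18 and -0.28.

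In the 19S base and lid, all 17 members had log2 fold changes below 0, with a median of -0.27. The 2 falls (PSMD4 and PSMD7) are 11.8% of them, where 4.36% of all genes tested were called lower. Both carnosine libraries lay below both controls for 13 (76.5%), where all genes tested had 28.8%. The 6 ATPases, which form the unfolding ring, had a median of -0.29, and 0 passed. PSMC5, or RPT6, had the smallest p among them, with 119.0 and 113.4 CPM in the controls and 93.4 and 92.3 CPM with carnosine (log2 fold change -0.32 ± 0.10 SE, adjusted p = 0.0835, edgeR). PSMC1, PSMC3, PSMC4, PSMC6 and PSMC2 had -0.34, -0.34, -0.25, -0.18 and -0.12. PSMC3 was called by DESeq2 (adjusted p = 0.0384). Opposite-strand exons cover 75.8% of the exonic bases of PSMC1 and 19.5% of those of PSMC5.

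The scaffold subunits of the base had small values, -0.14 for PSMD1 and -0.093 for PSMD2, the largest 19S subunits, whereas PSMD4 of the same group fell. Of the 8 lid subunits 1 fell, and the median was -0.29. PSMD14, the deubiquitinase RPN11 that strips ubiquitin chains from substrates, had 148.3 and 156.4 CPM in the controls and 117.6 and 135.6 CPM with carnosine, with -0.27 ± 0.11 (SE) on the log2 scale and an adjusted p of 0.181 (edgeR). The lid subunits PSMD3, PSMD11, PSMD13 and PSMD12 lay between -0.34 and -0.27. PSMD6 and PSMD8 had -0.10 and -0.12, with overlapping groups.

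In the alpha ring, which gates the core, 0 of 7 tested subunits passed and the median was -0.21. PSMA1 had 78.5 and 78.6 CPM in the controls and 55.1 and 69.8 CPM with carnosine (log2 fold change -0.33 ± 0.13 SE, adjusted p = 0.154, edgeR). Exons of same-strand genes cover 24.7% of its exonic bases. The carnosine libraries of PSMA1 differed more from each other than the controls did, and its log2 fold change was -0.52 without carnosine replicate 2 (adjusted p = 0.0327, called) and -0.17 without carnosine replicate 1 (0.433). PSMA6, PSMA4, PSMA5 and PSMA7 had -0.37, -0.22, -0.21 and -0.16, and PSMA3 and PSMA2 had -0.028 and 0.055 with overlapping groups. PSMA6 moved likewise, to -0.57 without carnosine replicate 2 (adjusted p = 0.0362, called) and -0.19 without carnosine replicate 1 (0.452). The median of the alpha ring was -0.13 without carnosine replicate 1.

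Of the 6 tested subunits of the constitutive beta ring 0 passed, and the median was -0.22. The proteolytic subunits were measured in full. PSMB5, which cuts after hydrophobic residues, had 238.5 and 242.4 CPM in the controls and 224.0 and 246.0 CPM with carnosine, with overlapping groups (log2 fold change -0.033 ± 0.11 SE, adjusted p = 0.878, edgeR). PSMB6, which cuts after acidic residues, had 176.0 and 177.3 CPM against 148.5 and 161.7 CPM (-0.19 ± 0.10 SE, adjusted p = 0.291). PSMB7, which cuts after basic residues, had 365.6 and 391.5 CPM against 298.0 and 341.9 CPM (-0.24 ± 0.12 SE, adjusted p = 0.241). The carnosine libraries of PSMB6 and PSMB7 lay below their controls, but neither passed. PSMB2 had the smallest p of the ring, with 168.0 and 153.8 CPM in the controls and 126.5 and 129.0 CPM with carnosine (-0.33 ± 0.10 SE, adjusted p = 0.0905, edgeR), and PSMB1 and PSMB4 had -0.26 and -0.20.

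PSMB10, which replaces PSMB7 in immunoproteasomes, was the interferon-inducible beta subunit with counts. It had 10.6 and 10.8 CPM in the controls and 8.16 and 7.11 CPM with carnosine. The groups were apart, but PSMB10 did not pass (log2 fold change -0.48 ± 0.15 SE, adjusted p = 0.0891, edgeR). Other genes of the same strand cover 34.8% of its exonic bases.

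Of the 4 activators 0 passed, with 2 values above 0 and 2 below. PSME1 and PSME2, the interferon-inducible subunits of the PA28 cap, were the tested members with the highest log2 fold changes, 0.11 ± 0.10 and 0.18 ± 0.13 (SE; adjusted p = 0.536 and 0.435, edgeR), and neither passed. PSME1 had 103.7 and 109.6 CPM in the controls and 110.2 and 120.2 CPM with carnosine, and PSME2 had 136.7 and 154.0 CPM against 148.3 and 180.6 CPM. The groups of PSME2 overlapped. PSME3, the nuclear PA28 gamma, had 187.2 and 170.9 CPM in the controls and 146.8 and 135.1 CPM with carnosine (-0.35 ± 0.11 SE, adjusted p = 0.0946, edgeR). PSME4, or PA200, a large cap of the core, had -0.35 ± 0.18 with overlapping groups, and its value ranged from -0.57 without carnosine replicate 1 to -0.13 without control replicate 1. PSMF1, or PI31, which binds the core, had 67.5 and 67.9 CPM against 61.7 and 65.6 CPM (-0.089 ± 0.092 SE, adjusted p = 0.587).

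The windows of PSME1 and PSME2 both hold the interferon-stimulated response element core, marked in capitals within 30 bases of each (chr14:24136189-24136218, plus strand, and chr14:24146619-24146648, minus strand, GRCh38.p14, RefSeq). They are shown because these members differ in sign from most others, although neither passed the test. PSMA2 and PSMD10 also had values above 0 (0.055 and 0.010), and their windows do not hold the interferon core. The windows of PSME1 and PSME2 hold the antioxidant response element core as well. PSME1 and PSME2 were the tested members with that core whose values lay above 0.
PSME1: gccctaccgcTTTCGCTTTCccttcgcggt
PSME2: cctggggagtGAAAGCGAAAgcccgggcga
In PSME1 the match is on the opposite strand and lies just after the RefSeq start, and in PSME2 it begins 28 bases before the start. The other members with this core were PSMA4, PSMB4, PSMB10, PSMG4 and PSMB8, of which the first 4 had log2 fold changes of -0.22, -0.20, -0.48 and -0.28 and PSMB8 was not tested. The core thus occurred in members with values on both sides of 0.

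PSMB3, a structural subunit of every constitutive beta ring, had 1 count in control replicate 1, 1 in carnosine replicate 1 and 0 in the other libraries. PSMB8 and PSMB9, the inducible counterparts of PSMB5 and PSMB6, had 0 counts in all 4 libraries. Many of their neighbours were also at or near 0. Of 13 protein-coding genes within 250 kb of PSMB3, 9 had a mean count under 10, among them MLLT6, CISD3 and PCGF2 at 0. Within 250 kb of PSMB8 on chromosome 6, 12 of 16 had a mean under 10, TAP1 among them at 0. The others were HLA-DQB1, HLA-DQA1, BRD2 and TAP2, with means of 2278.75, 198, 52 and 49. GENCODE 29 lists 6, 35 and 42 transcripts for PSMB3, PSMB8 and PSMB9 that lie outside the primary assembly, on alternate sequences. Of protein-coding genes with such transcripts 68.1% had a mean count under 10, against 35.9% of the others. Whether these 3 genes were not expressed or their reads were not counted was not tested. Their counts are not read as their expression here, and no direction is given for them. PSMB1, PSMC4, PSME1 and PSME2 also have such transcripts but were well counted. The neighbours HLA-DQB1 and HLA-DQA1 have 31 and 36 of them.

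**Figure D4:**
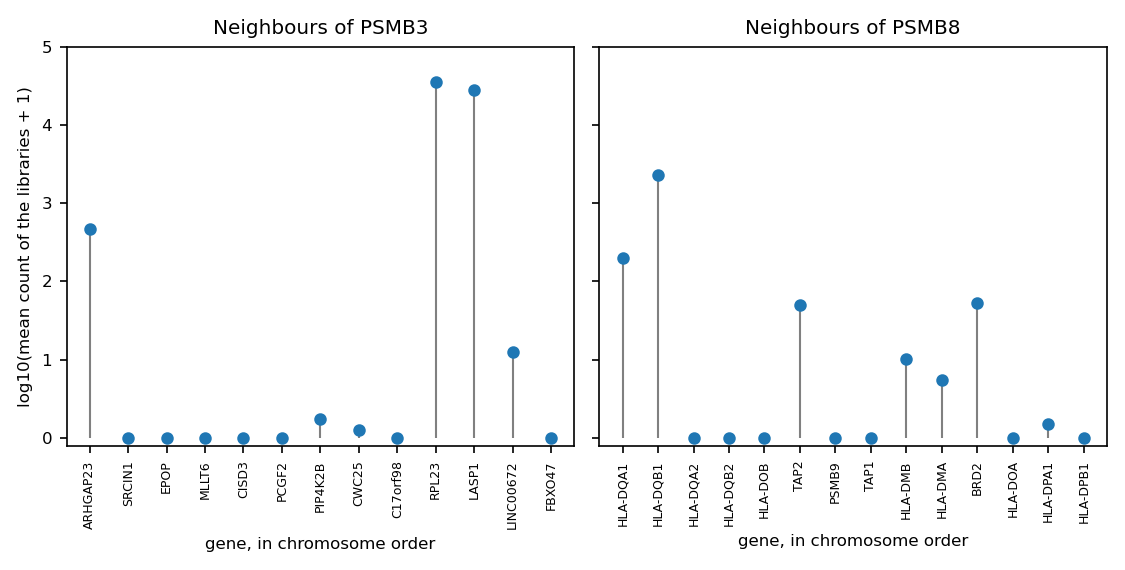
Mean count over the 4 libraries, as log10 of the mean plus 1 (y axis), of named protein-coding genes within 250 kb of PSMB3 (left) and PSMB8 (right), in chromosome order (x axis). Most genes around both members lie at or near 0, whereas RPL23 and LASP1 near PSMB3 have means of 35936.5 and 28155. Near PSMB8 the highest mean is that of HLA-DQB1, 2278.75.

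PSMA8, the testis form of an alpha subunit, and PSMB11, the thymus form of PSMB5, had 0 counts in each library. At these depths 0 counts allow up to 3 counts, or 0.0422 to 0.0596 CPM. Neither has listed transcripts outside the primary assembly. Of the protein-coding neighbours within 250 kb, 0 of 2 near PSMA8 and 4 of 20 near PSMB11 had a mean count under 10, and the highest means were 6020 and 17429. These floors cover counting error only.

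Levels per length, as CPM per kb of annotated exon, differed widely within the complex. In controls PSMA7 had the highest value, 238.1, followed by PSMB7 (211.8), PSMD2 (169.7), PSMC3 (142.8) and PSMB5 (136.2). The lowest tested members were PSMG4 at 0.903, PSMA2 at 2.86 and PSMA6 at 5.18 CPM per kb. Medians were 19.1 for the alpha ring, 120.0 for the beta ring, 34.1 for the ATPases, 26.8 for the lid and 16.4 for the chaperones of the core. All annotated exons were counted in the length, which is 10.4 kb for PSMG4, and exon use was not measured. PSMG4 was also the lowest tested member before division by length, at 9.41 CPM in controls. Exons of same-strand genes cover 14.6% of the exonic bases of PSMA2 and 14.1% of those of PSMA6. The sum over the 19S base and lid divided by that over the tested 20S subunits was 0.889 and 0.862 in controls and 0.840 and 0.839 with carnosine, lower in both carnosine libraries.

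**Figure D5:**
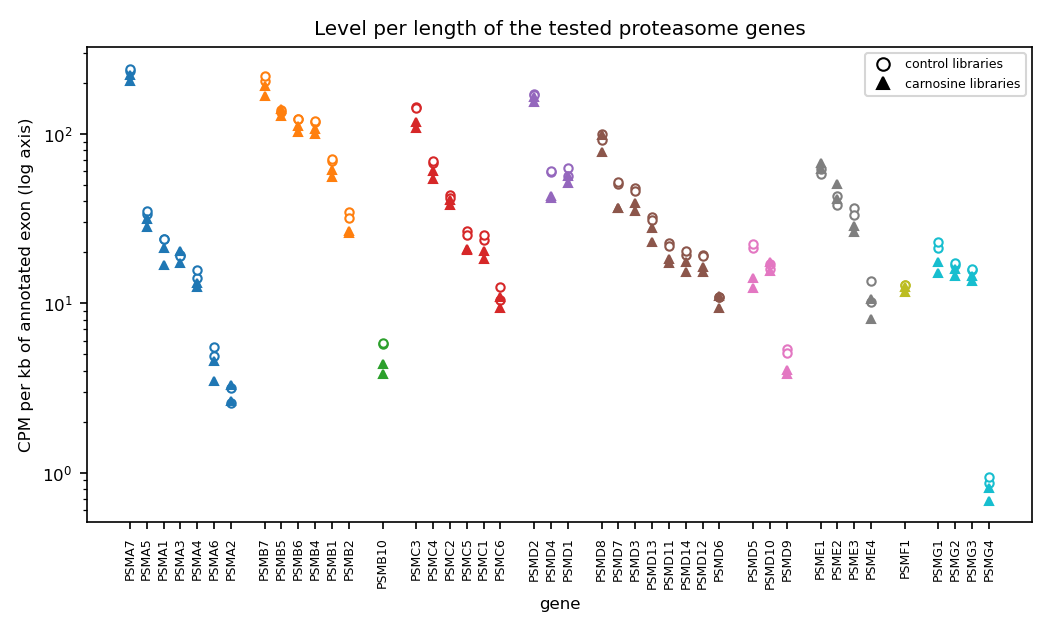
Level per length (y axis, CPM per kb of annotated exon, log axis) of each tested proteasome gene (x axis, grouped by role and ordered by control level). Open circles are the 2 control libraries and filled triangles the 2 carnosine libraries. In role groups with several tested genes, the highest and lowest levels differ more than the libraries of a gene do. Some genes of a group lie close together, such as PSMD1 and PSMD4 at 59.4 and 59.8 in controls.

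The table also holds 29 genes named as pseudogenes of 9 members, which took 0.109% as many counts as the members did. Of these, 4 were tested and 0 passed. The most counted was PSMA6P1, with a mean of 225.5 counts against 1802.5 for PSMA6, and how reads that match both were counted is not given.

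Genes that work with the proteasome were taken from a list of 31, all tested, of which 1 rose and 3 fell, with a median log2 fold change of -0.10. The 3 that fell are 9.68% of the list, against 4.36% of all genes tested. The number past the threshold depended on the library left out, both in this list and over all genes tested. ADRM1, or RPN13, a second ubiquitin receptor of the 19S particle, had 290.9 and 264.8 CPM in the controls and 179.1 and 190.8 CPM with carnosine. Its fall was larger than the spread within either group (log2 fold change -0.59 ± 0.11 SE, adjusted p = 0.0279, edgeR). Opposite-strand exons of other genes cover 17.2% of the exonic bases of ADRM1. UCHL5, the deubiquitinase that docks on ADRM1, had 30.8 and 31.8 CPM against 20.7 and 21.9 CPM and was 1.47-fold lower (-0.55 ± 0.10 SE, adjusted p = 0.0289, edgeR). In PSMD4, ADRM1 and UCHL5, both carnosine libraries lay below both controls, as in 28.8% of all genes tested. These genes had already passed the test as lower, so this adds no support to their falls.

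PAAF1, which binds 19S ATPases during assembly, had 12.8 and 14.5 CPM in the controls and 8.68 and 8.18 CPM with carnosine, 1.61-fold lower (-0.69 ± 0.14 SE, adjusted p = 0.0334, edgeR). ADRM1, UCHL5 and PAAF1 no longer passed when control replicate 1 was left out (adjusted p = 0.134, 0.0939 and 0.0593), nor when control replicate 2 was (0.0750, 0.129 and 0.159). UCHL5 also did not pass without carnosine replicate 1 (0.0551), nor PAAF1 with scaling by total counts (0.0507). POMP, the chaperone of beta ring assembly, had 35.1 and 43.2 CPM against 29.9 and 45.9 CPM, with overlapping groups and a log2 fold change of -0.050 ± 0.21. SEM1, the smallest 19S subunit, had 57.0 and 57.5 CPM against 62.7 and 70.7 CPM (0.22 ± 0.10, adjusted p = 0.214).

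NFE2L2 was the related gene that rose. Exons of same-strand genes cover 17.6% of its exonic bases and opposite-strand exons 4.08%. NFE2L2, or NRF2, a regulator of antioxidant genes, had 78.6 and 73.9 CPM in the controls and 159.6 and 160.5 CPM with carnosine, so that the groups lay far apart. Its log2 fold change was 1.07 ± 0.10 (SE; edgeR, adjusted p = 0.00855), and it passed without any 1 of the 4 libraries. NFE2L1 had 243.8 and 235.8 CPM in the controls and 308.6 and 286.8 CPM with carnosine, apart but not past the test (0.31 ± 0.11 SE, adjusted p = 0.113). DDI2 and NGLY1, the protease and the glycanase that activate the NFE2L1 protein, had log2 fold changes of 0.11 and -0.28. The unfoldase VCP had -0.23 and its cofactors NPLOC4 and UFD1 had -0.23 and 0.11. UBB, a polyubiquitin gene, had -0.37 and RPS27A, which encodes ubiquitin fused to a ribosomal protein, had 0.033. None of these passed the test.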

How the data were processed

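The authors deposited whole-number raw counts per gene, with no normalization, for 4 libraries of rRNA-depleted total RNA read as pairs of 101 bases. Tools named are HTSeq 0.6.1, HISAT2 2.1.0 and bcl2fastq 2.17.0, with the build hg38, per the submitters' processing notes. Not given in the sources used here are the annotation release, the strand setting and the handling of reads with several matches. Columns were matched to samples by title.

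Genes were kept by filterByExpr (a count of 10, adjusted for library size, in 2 libraries), which left 16340 of 58219, holding 99.96% to 99.97% of each library's counts. They were tested with edgeR 4.0.16 (two-sided quasi-likelihood test after TMM scaling, with a term for group alone and 2 residual degrees of freedom, Benjamini-Hochberg adjustment over all genes tested, threshold 0.05) in R 4.3.3. DESeq2 1.42.0 and limma 3.58.1 (voom) were alternatives, with other scalings, filters and libraries left out. SE is the absolute log2 fold change divided by the square root of F. CPM uses scaled library sizes. Coordinates, lengths and overlaps come from GENCODE 29, where 57881 genes matched by identifier. Replicates were not copies: the chi-square of their counts was 33.8 and 53.0 times its degrees of freedom in controls and carnosine.

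Every member was named. Full values were given for members past the threshold, proteolytic subunits and their inducible counterparts, and the member with the smallest p in a role group where none passed. Of the related list, genes past the threshold and POMP, ADRM1, SEM1 and NFE2L1 were named, and the others named (PSMD14, PSMD9 and PSMD10, PSME1 and PSME2 with values, DDI2, NGLY1, VCP, NPLOC4, UFD1, UBB and RPS27A) were chosen after their values were seen. Members and lists were chosen with earlier results of these data known. The fit was tested on simulated data.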

Additional observations from a re-analysis of the deposited data

How the results depend on the processing

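The direction of the median over proteasome genes was kept under each scaling, filter and tool tried: their median log2 fold change lay between -0.25 and -0.23 and 39 of 43 were below 0. With 1 library left out the median lay between -0.30 and -0.17, and the log2 ratio of summed CPM between -0.28 and -0.15. The count of genes past the threshold depended more on the settings. Among all genes it was 1358, with 3145 without a filter, 2211 with DESeq2, and 505 to 1595 with 1 library left out. Among proteasome genes it was 3, with 9 without a filter, 6 with DESeq2 (of all genes, 12.05% and 15.3% were called), and 1 to 6 with 1 library left out. Among related genes it was 4, with 7 without a filter, and 1 to 7 with 1 library left out. The genes PSMD4, PSMD5 and PSMD7 were in each of these larger counts of members. The cause was not tested.

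Replicate numbers are shared between groups in the labels, which do not say what they mark. Deviations of same-numbered libraries correlated at 0.31 over all genes and 0.58 over the members, over 2 pairs only. With the replicate block, 5767 genes, 24 proteasome genes and 14 related genes passed, with 1 residual degree of freedom. These are 35.3% of all genes in either direction (18.3% lower), against 24 of 43 members, all lower.

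Log2 fold changes near 0 changed sign with 1 library left out. Those of PSMA2 ranged from -0.11 to 0.20 and of PSMD10 from -0.083 to 0.092, below 0 without control replicate 1 (-0.084 and -0.039) or carnosine replicate 2. Above 0 without carnosine replicate 1 were PSMA3 (range -0.16 to 0.087), PSMB5 (-0.11 to 0.030), PSMD6 (-0.22 to 0.0056), PSMD8 (-0.30 to 0.037) and POMP (-0.40 to 0.23, and 0.10 without control replicate 2). Each tested member had at least 358 counts in every library, and the parts of counting error and spread between libraries were not tested.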
